A study of Mus musculus with 24 samples.

Results

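The miR-200 family was measured across all 24 samples of a mouse model of triple-negative breast cancer by its 5 probes, mmu-miR-200b, mmu-miR-200a, mmu-miR-429, mmu-miR-200c and mmu-miR-141, of the 566 mouse miRNA probes on the nCounter panel. The members were taken by probe name and all 5 were tested. JygMC(A)-GFP/Luc cells, a fluorescent and luciferase-tagged mouse mammary carcinoma line, had been grown in female Balb/C nude mice aged 6 to 9 weeks, which lack mature T cells, after injection into the mammary fat pad. The samples were carcinoma areas (n = 5) and EMT-like, spindle-cell areas (n = 7) of primary tumors, lung metastases (n = 4), normal mammary gland (NMG, n = 2) and normal lung parenchyma (NL, n = 2), all laser-captured from BalbC nude mice, and lysates of the same line kept as a monolayer (n = 2) or as third-generation 3D-spheres on ultra-low adherent plates (n = 2). All tumor tissue thus came from a single line, 1 sample of each tumor kind carried a label naming 3 animals, and several tumor samples shared an animal. The 4 normal samples alone were labelled as new samples, so tissue kind and any difference in the handling of that set cannot be told apart. In tissue, fewer cells of a type and less RNA per cell cannot be told apart either.

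MicroRNAs pair through a short seed at their 5′ end with messenger RNAs and lower the output of those messages. The miR-200 family is the best-known group that keeps epithelial cells epithelial: its members repress Zeb1 and Zeb2, the repressors of E-cadherin, and Zeb1 and Zeb2 in turn repress the genes of the family. Loss of the family accompanies the epithelial-mesenchymal transition (EMT), and its levels are high in mammary and airway epithelium.

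The mature 3p sequences are shown because the family divides in 2 ways, by genomic cluster and by seed, and the divisions do not coincide. Capitals mark the seed (bases 2 to 8 from the 5′ end), and the sequences are those of RefSeq (GRCm38.p6), where all 5 members were found.
miR-200b: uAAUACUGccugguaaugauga
miR-200a: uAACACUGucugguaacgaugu
miR-429: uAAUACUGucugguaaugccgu
miR-200c: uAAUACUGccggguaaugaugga
miR-141: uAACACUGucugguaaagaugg
The genes of miR-200b, miR-200a and miR-429 lie in this order on the minus strand of chromosome 4 (chr4:156053905-156055750, 1846 bases), and those of miR-200c and miR-141 on the minus strand of chromosome 6 (chr6:124717914-124718390, 477 bases). The seed AAUACUG is carried by miR-200b, miR-429 and miR-200c and the seed AACACUG by miR-200a and miR-141, and no other of the 1738 mature mouse miRNAs of the table has either. Counting from the 5′ end, the seeds differ at 1 base (U4C from miR-200b to miR-200a), so each cluster holds both seeds. Over the 22 positions compared, miR-200b and miR-200c differed at 2 (U11G, A22G) and miR-200a and miR-141 at 2 (C17A, U22G), while miR-429 differed from miR-200b at 4 and from miR-200c at 5 with the same seed. Pairs with different seeds differed at 4 or 5. Signal shared between such similar probes was not tested.

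The deposited values are barcode counts less a background, the average of 6 negative controls per lane, and lanes were not scaled to each other. A member counted as detected where it exceeded that average by 2 SD of these controls or more, a limit that ran from 4.0 to 21.4. The sum of mouse miRNA values ran from 26420 to 46507 in the cultures, 62583 to 184501 in tumor tissue and 525697 to 560247 in NMG. It was 590022 and 2335745 in the 2 NL samples. Lanes were brought to a common scale with TMM (trimmed means of log ratios), which gives the normalized values. Groups were compared on log2(normalized value + 1) with limma in a single fit, with Benjamini-Hochberg adjustment over 583 probes and a call at an adjusted p under 0.05.

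The members were above the detection limit in 89 of 100 values from tissue and in 0 of 20 values from cultures (filled and open points in the plot of levels). In order of the medians after TMM, NL stood first for all 5 members, and the EMT-like areas stood below NMG, carcinoma and lung metastasis for all 5. The first place of NL depends on the scaling. With the 100 most abundant miRNAs and the miRNA total, metastasis over NL was positive for miR-200b (log2 fold changes 1.05 and 0.74) and miR-429 (1.55 and 1.25). For miR-200c it reached 1.81 over the alternatives. NMG, carcinoma and lung metastasis changed places from member to member: NMG ranked 2 for miR-200a and miR-141 and 4 for miR-200b, miR-429 and miR-200c. Most neighbours in these orders overlapped. Among the detected groups, those that did not were NL above NMG for miR-200a and miR-141, lung metastasis above NMG for miR-200b, and lung metastasis above the EMT-like areas for miR-141.

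**Figure D1:**
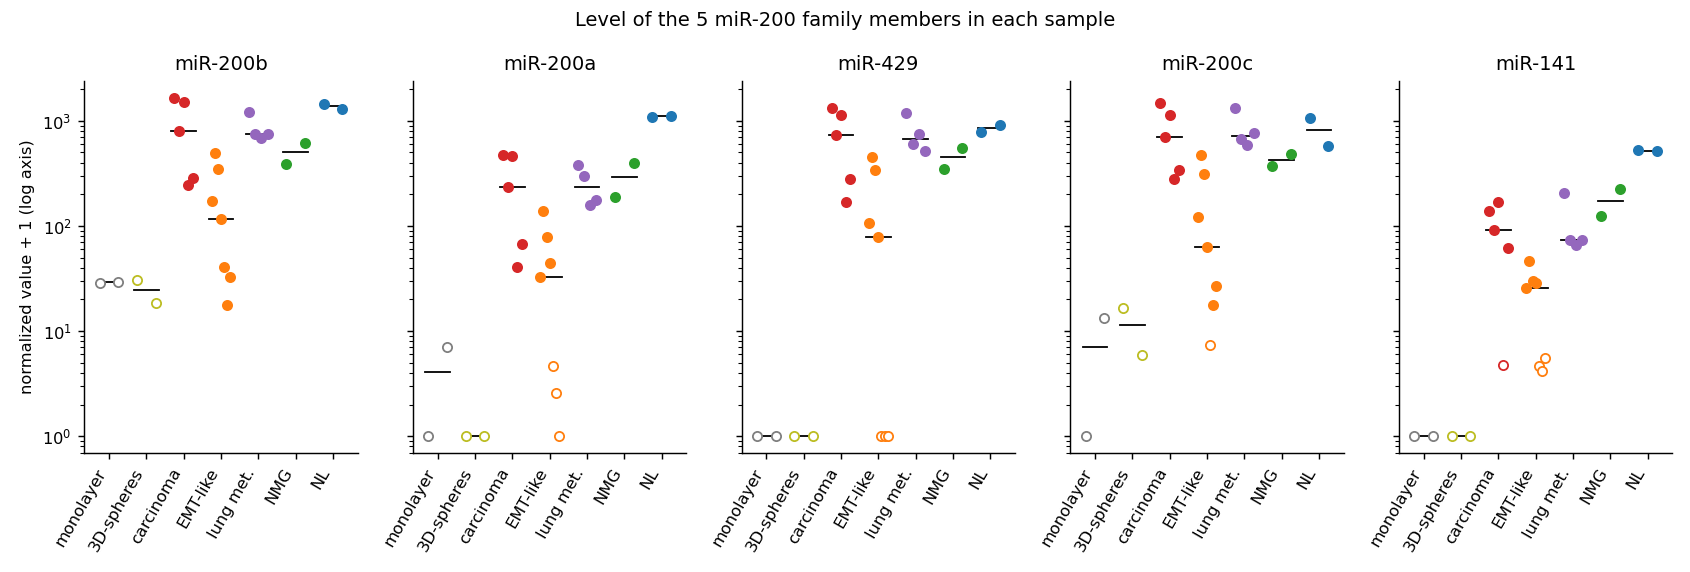
Normalized value + 1 (log axis) of each member in each sample, by group (lung met., lung metastasis). Each point is a sample in replicate order, open where the value was under the detection limit of its lane, and the bar is the median; a value at 1 was at or below 0 after background subtraction. All 20 culture values are open, and the 3 open EMT-like points of miR-200a, miR-429 and miR-141 are replicates 5, 6 and 7.

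In culture, the deposited values of the members lay between -10 and 18, against limits of 11.1 to 21.4 in the same lanes. For miR-200b, the brightest member there, they were 18 and 14 for monolayer cultures and 17 and 7 for 3D-spheres, all under the limit. For miR-200c the monolayer gave -1 and 6 and the spheres gave 9 and 2. For miR-200a, miR-429 and miR-141 no culture value was above 3. The spheres and the monolayer could therefore not be ordered for any member, and no fold change is given between them. In the fit, 0 of 5 members were called between spheres and monolayer, 0 had an unadjusted p under 0.05 (84 of 583 probes did), and 4.63% of all probes were called.

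Against the carcinoma areas that the same line formed in the mammary gland, all 5 members were lower in the cultures. The percentage of all probes called lower there was 19.7%. With the culture lanes set at their detection limits, miR-200b was at least 20.3-fold lower and miR-200c at least 19.5-fold. The bound was 16.7-fold for miR-429, 5.12-fold for miR-200a and 1.74-fold for miR-141. The limma fit took the culture values as measured, floored at 0, so its p-values do not test these bounds. Its adjusted p was 5.19e-05 for miR-200b, 8.11e-06 for miR-200c, 6.55e-05 for miR-429, 7.47e-05 for miR-200a and 1.23e-05 for miR-141. For miR-200b, miR-200a, miR-429 and miR-200c all 4 cultures lay below all 5 carcinoma samples (exact permutation p = 0.0159, two-sided, n = 4 and 5). For miR-141 carcinoma replicate 4 was itself under the limit, so its order against the cultures cannot be read. The bounds hold for this scaling: with the 100 most abundant miRNAs they were 3.70-fold for miR-200b, 3.55-fold for miR-200c and 3.05-fold for miR-429, and none above 1 was left for miR-200a and miR-141 (for miR-141 also with the miRNA total). The bounds are smallest for miR-200a and miR-141 because these members were dim in carcinoma. Against EMT-like areas, 4 of 5 members were called lower in the cultures (21.6% of all probes), with adjusted p of 0.00636 for miR-200c, 0.0285 for miR-200a and miR-429, and 0.000799 for miR-141. The exception was miR-200b, with an adjusted p of 0.0609 and a lower bound of 2.93-fold, for which scaling by the 100 most abundant miRNAs left no bound above 1 and gave a log2 fold change of the other sign (0.29). Of these 4, only miR-200c had a lower bound above 1 (1.89-fold, and none with the 100 most abundant miRNAs or the miRNA total), since EMT-like replicates 5 to 7 were themselves near or under the limit. The count of 4 fell to 1 or 2 in most refits without a single culture or EMT-like sample and to 1 without monolayer replicate 1, where 121 of 583 probes were called lower.

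Of the other epithelial miRNAs, some could be seen in culture and some, like the members, could not. Of 11 epithelial miRNAs on the panel outside the family, 6 were above the limit in at least 1 monolayer sample and 4 in at least 1 sphere sample. Among these 11, 0 were called higher and 4 lower in the cultures than in carcinoma, with a median log2 fold change of -0.74 against 0 for all probes. The largest changes among the 4 were those of miR-182 (log2 fold change -3.17, standard error 0.85) and miR-96 (-3.15, 0.79), neighbours in a cluster expressed in many epithelia. The third member of that cluster, miR-183, was above the limit in 3 of 4 cultures, as was miR-96, while miR-182 was in 0 of 4. Of 13 EMT-promoting or mesenchymal miRNAs, 1 was called higher in culture, miR-155, whose probe name carries the assay's factor for signal shared with a positive control (not subtracted here), and 6 lower, among them miR-199a-3p and miR-199a-5p, which are typical of fibroblasts and were at 0 in all 4 cultures. The 2 endothelial markers (miR-126-3p and miR-126-5p) were also at 0 in all cultures and summed to between 1067 and 1894 normalized in carcinoma. The part of such other cells in the difference between cultures and tumors was not tested.

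In the normal tissues every member was detected in every sample, and both NL samples lay above both NMG samples for each member. The share of all probes that separate in this way is not given. Over all probes, 61 were called higher in NL than in NMG and 7 lower. The normalized values of miR-200a were 1090 and 1118 in NL and 187 and 399 in NMG. Those of miR-141 were 527 and 512 in NL and 123 and 222 in NMG. Both members thus lay close together in the 2 lungs and further apart in the 2 glands. The values of miR-200b were 1440 and 1306 in NL and 391 and 616 in NMG, and those of miR-429 were 787 and 906 in NL and 350 and 549 in NMG. Those of miR-200c were 1057 and 578 in NL and 374 and 478 in NMG, the closest approach of the 2 tissues. The log2 fold changes of NL over NMG were 2.01 (standard error 1.71) for miR-200a, 1.64 (1.29) for miR-141, 1.48 (1.15) for miR-200b, 0.94 (2.30) for miR-429 and 0.88 (1.44) for miR-200c, with a median of 1.48 against 0.33 over all probes. None of the 5 was called with limma (adjusted p of 0.504 to 0.857), while 11.7% of all probes were called in either direction. None had an unadjusted p under 0.05, which 151 of 583 probes had. With 2 samples against 2 the exact test cannot give a p below 0.333. Within each pair of normal samples with the same number, NL was the higher for all 5 members. Over the alternatives the log2 fold changes of NL over NMG stayed positive, but their size depends on the processing. They ran from 0.01 to 2.13 for miR-200c, 0.07 to 2.19 for miR-429 and 0.61 to 2.73 for miR-200b. For miR-141 they ran from 0.77 to 2.89 and for miR-200a from 1.13 to 3.26.

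The labelled tissues were checked against markers. The endothelial markers summed to between 67772 and 70141 normalized in NL, a vessel-rich tissue, and to between 10971 and 17649 in NMG. The basal epithelial miRNA miR-205 was at 1316 and 1505 in NMG. In NL it was at 57.6 in replicate 1 and 898 in replicate 2, and miR-203, an epithelial differentiation miRNA, was at 110 and 745. The 2 lungs thus differed widely in these epithelial miRNAs and in their miRNA sums while their normalized miR-200a, miR-141, miR-200b and miR-429 differed little. Of the 11 epithelial miRNAs, 1 was called higher in NL than in NMG, miR-375, which is known from airway and endocrine cells. Of 5 skeletal and heart muscle miRNAs 1 was called higher in NL, miR-208a, at 116 and 185 in NL and 2.97 and 5.36 in NMG. The value of miR-1, also of that list, was 30.8 and 834 in NMG and 474 and 1357 in NL. Muscle in the captured tissue thus may differ between normal samples, and its part in the comparisons was not tested.

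Relative to NMG, the carcinoma areas showed no called change in any member with limma, while 29.3% of all probes were called in either direction. No member had an unadjusted p under 0.05, which 217 of 583 probes had. The normalized values of miR-200b in carcinoma ran from 246 through a median of 790 to 1647, on both sides of the NMG values, with 3 samples above both glands and 2 below both. The log2 fold changes were 0.45 (standard error 0.97) for miR-200b, 0.33 (1.92) for miR-429 and 0.61 (1.2) for miR-200c, with adjusted p of 0.804 to 1. They were -0.69 (1.43) for miR-200a and -1.53 (1.08) for miR-141, with adjusted p of 0.820 and 0.326. The members with seed AAUACUG thus had positive values and those with seed AACACUG negative ones. These signs depend on the scaling between lanes: with no scaling, with the mRNA control probes or with the positive controls all 5 were negative, and the median of all probes then moved from -0.68 to -1.83, -1.26 and -1.88.

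**Figure D2:**
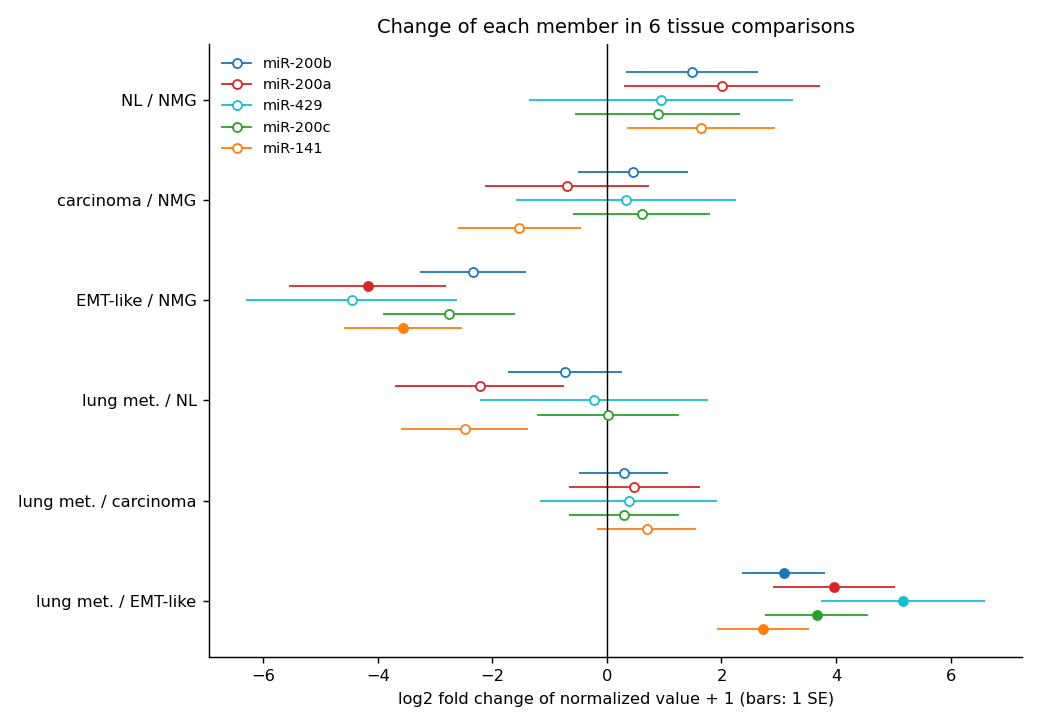
Log2 fold change of normalized value + 1 for each member in 6 comparisons of tissues, first group over second. Values under the detection limit enter as measured, floored at 0. Bars are 1 standard error of the limma fit and filled points were called at an adjusted p under 0.05; 5 of 5 members were called for lung metastasis over EMT-like areas and 2 of 5 for EMT-like areas over NMG.

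The EMT-like areas were lower than NMG in miR-200a and miR-141. For miR-200a the EMT-like values ran from 0 through a median of 31.5 to 136, and for miR-141 from 3.17 through 24.9 to 45.0, and all 7 samples lay below both glands. On the log2 scale the changes were -4.18 (standard error 1.37, adjusted p = 0.0270, limma) for miR-200a and -3.57 (1.03, adjusted p = 0.0125) for miR-141. Those of miR-200b, miR-200c and miR-429 were -2.34, -2.76 and -4.46, with adjusted p of 0.0708, 0.0861 and 0.0828, and 6 of 7 samples below both glands. Replicate 2 was the exception for each. With a pseudocount of 10 the values of miR-429, miR-200a and miR-141 were -3.01, -3.10 and -2.78, and the same 2 members were called. Thus 2 of 5 members were called lower, where 20.4% of all probes were, and the median of the members was -3.57 against -0.30 for all probes. The count was 0 without either NMG sample, 0 when lanes were scaled by the 100 most abundant miRNAs, and 5 with no scaling, with the mRNA or the positive controls, or without EMT-like replicate 2 or 3. With no scaling, the mRNA controls and the positive controls, 201, 164 and 206 of 583 probes were called lower. Without EMT-like replicate 2 or 3, 131 and 119 of 583 were. Without NMG replicate 1 or 2, 79 and 84 of 583 were, and with the 100 most abundant miRNAs 72 of 583. Of the 11 epithelial miRNAs, 3 were called higher in EMT-like areas than in NMG, led by miR-31 and miR-183, and 4 lower, led by miR-205 (log2 fold change -5.12) and miR-203 (-3.22). Of the 13 EMT-promoting or mesenchymal miRNAs, 3 were called higher, led by miR-9 (6.34) and miR-221 (2.12), and 6 lower, led by miR-143 (-3.84) and miR-199a-5p (-3.01). The summed smooth muscle and fibroblast markers were between 15164 and 16236 in NMG and between 1859 and 4173 in EMT-like areas, and their part in the difference was not tested.

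The lung metastases were also set against NL, whose labels carry other numbers than those of the animals with metastases. The normalized values of miR-200a in metastasis were 379, 296, 157 and 175, all below the NL values of 1090 and 1118. Those of miR-141 were 207, 72.5, 65.5 and 72.8, all below the NL values of 527 and 512. Those of miR-200c were 1318, 666, 592 and 766, with 1 above the NL values of 1057 and 578 and 3 between them. The log2 fold changes were -2.22 (standard error 1.48) for miR-200a, -2.48 (1.11) for miR-141, -0.73 (1.0) for miR-200b, -0.23 (1.99) for miR-429 and 0.02 (1.24) for miR-200c. No member was called with limma, although 49.2% of all probes were called in either direction and the median of all probes was -0.90. The lowest adjusted p was 0.0705, for miR-141, which was called with a pseudocount of 10 at an adjusted p of 0.0135. It was also the 1 member with an unadjusted p under 0.05, which 320 of 583 probes had. With no scaling or with the mRNA or positive controls 3 members were called lower, and miR-200c also turned negative. In these settings 377, 386 and 379 of 583 probes were called lower. With the 100 most abundant miRNAs or the miRNA total miR-200b and miR-429 turned positive.

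Between the compartments of the tumor, all 5 members were higher in lung metastasis than in EMT-like areas. The values of miR-200b in metastasis were 1221, 754, 678 and 741, and in EMT-like areas they ran from 16.6 through a median of 114 to 494. The values of miR-429 in metastasis were 1176, 597, 748 and 511, and in EMT-like areas they ran from 0 through 77.9 to 450. For every member each metastasis lay above each EMT-like sample, and the share of all probes that separate in this way is not given. By log2 fold change miR-429 was at 5.17 (standard error 1.44, adjusted p = 0.0322), miR-200a at 3.96 (1.07, 0.0261), miR-200c at 3.66 (0.90, 0.0176), miR-200b at 3.09 (0.72, 0.0131) and miR-141 at 2.73 (0.81, 0.0401), all with limma. The percentage of all probes called higher was 2.74%. Since EMT-like replicates 5 to 7 were under the limit for miR-429, miR-200a and miR-141, the sizes of these folds rest on the pseudocount: with a pseudocount of 10 they were 3.72, 2.89 and 2.0, against 2.89 for miR-200b and 3.32 for miR-200c, and 5 members were called. For each member the exact permutation test gave p = 0.00606 (two-sided, n = 4 and 7). The count of 5 fell to 0 without lung metastasis replicate 1, to 2 without replicate 2 or 3 or EMT-like replicate 5 or 6, to 3 without metastasis replicate 4 or EMT-like replicate 7, to 0 with the mRNA controls and to 0 with those groups alone in the fit, all directions being kept. Of 583 probes, 16 were called higher in the main fit. Without metastasis replicates 1, 2, 3 and 4 in turn 4, 9, 10 and 13 were, and without EMT-like replicates 5, 6 and 7 in turn 10, 13 and 13. With the mRNA controls 1 was called higher, and with those groups alone 15. Of the 11 epithelial miRNAs, miR-203 was called higher (log2 fold change 3.72, standard error 0.66) and miR-31 lower (-1.52, 0.30). Of the 13 EMT-promoting or mesenchymal ones, 0 were called higher and 3 lower, led by miR-10b (-3.83, 0.65) and miR-199a-3p (-1.55, 0.33). The 5 airway markers summed to between 1240 and 2071 in metastasis and 792 and 1507 in EMT-like areas. Nearly all of this was miR-34c, whose probe name carries the assay's factor for signal shared with a positive control (not subtracted here) and whose medians were 1516 in metastasis and 1571 and 2141 in the monolayer and spheres. Of the other airway markers, miR-449a was above the limit in 1 of 4 metastases and miR-34b-5p in none. The endothelial markers summed to between 819 and 3114 in metastasis and 1314 and 2626 in EMT-like areas. The airway marker miR-375 was above the limit in no metastasis and in both NL samples.

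In 4 animals, or pools of animals, a metastasis and an EMT-like area carried the same label (paired points in the plot by animal). The metastasis was the higher in 4 of 4 for each member. For miR-200b the difference was 2.83, 2.71, 5.27 and 4.51 on the log2 scale, and for miR-200c it was 3.45, 3.39, 5.07 and 4.85. For miR-429 it was 3.47, 2.92, 9.55 and 9.0, where the 2 largest are set against EMT-like values at 0. With the animal as a fixed replicate block the count of called members was 4, where 11 of 583 probes were called higher. The exception was miR-141 (adjusted p = 0.0553, limma).

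**Figure D3:**
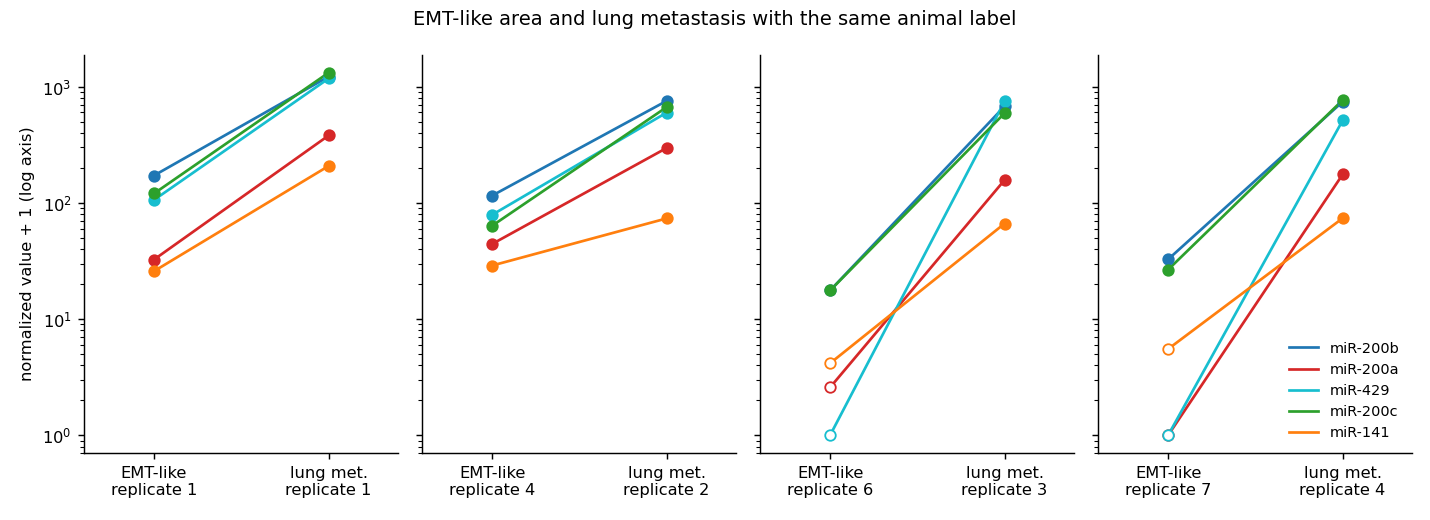
Normalized value + 1 (log axis) of each member in the EMT-like area and the lung metastasis (lung met.) with the same animal label, a panel per label and a line per member. Open points were under the detection limit; every line rises from the EMT-like area to the metastasis, and in the right 2 panels 3 of 5 members start under the limit.

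The animal labels fell into 2 series, with letters (carcinoma replicates 1 to 3, EMT-like replicates 1 and 2, metastasis replicate 1) and with numbers only. Carcinoma of the lettered animals held more of every member than that of the numbered animals: miR-200b was at 790, 1494 and 1647 against 246 and 286, and miR-200a at 232, 460 and 470 against 40.0 and 66.8. This split was not tested, the members are not independent, and the share of all probes that split alike is not given. Among the numbered animals alone, the 3 metastases lay above all 5 EMT-like samples for every member, for miR-200b at 678 to 754 against 16.6 to 350. The share of all probes that separate in this way is not given. In a fit without the lettered animals 4 members were called between metastasis and EMT-like areas, where 12 of 583 probes were called higher. The exception was miR-141 (adjusted p = 0.0649, limma). With the series as a term 5 members were called, and 19 of 583 probes were called higher.

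Metastasis and carcinoma overlapped for every member. The log2 fold changes of metastasis over carcinoma were between 0.29 (miR-200b, standard error 0.77) and 0.69 (miR-141, 0.86). No member was called, none had an unadjusted p under 0.05 (59 of 583 probes did), and 1.37% of all probes were called in either direction. Their order differed between the series of animals, a difference that was not tested. Among lettered animals the metastasis lay within or near the range of carcinoma, for miR-200b at 1221 against 790 to 1647. Among numbered animals all 3 metastases lay above both carcinoma samples for every member, for miR-200b at 678 to 754 against 246 and 286 and for miR-200c at 592 to 766 against 279 and 337. With so few samples such an order arises easily, and the share of all probes that separate in this way is not given. For miR-141 carcinoma replicate 4 was itself under the limit (deposited value 3, limit 19.7). No member was called among the numbered animals (log2 fold changes of 1.13 to 2.05, adjusted p of 0.495 to 1, limma). Between carcinoma and EMT-like areas 0 of 5 members and 0.172% of all probes were called with limma. The log2 fold changes of carcinoma over EMT-like areas were nevertheless between 2.03 and 4.79, with a median of 3.36 against -0.16 for all probes. For miR-200b the change was 2.79 (standard error 0.68, adjusted p = 0.0617, limma). With a pseudocount of 10 the changes ran from 1.57 (miR-141) to 3.35 (miR-429). All 5 members had an unadjusted p under 0.05, as did 81 of 583 probes. Within 4 animals the carcinoma area was the higher in 3 for each member, and the reverse held in the animal of carcinoma replicate 4 and EMT-like replicate 3, for miR-429 at 169 and 340.

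Within the EMT-like group the samples divided. Replicates 1 to 4 carried labels that also had a carcinoma sample, and replicates 5 to 7 came from animals without one. The division thus cannot be told apart from a difference between these animals. In replicates 1 to 4 all 5 members were above the limit, with miR-200b at 171, 494, 350 and 114. In replicates 5, 6 and 7 miR-200a, miR-429 and miR-141 were under the limit, and miR-200b was at 39.8, 16.6 and 31.7. For miR-200c replicate 5 was under the limit and replicates 6 and 7 were above it. In these 3 lanes 222, 258 and 200 mouse miRNAs were detected, with limits of 12.1, 11.9 and 17.3, against 211 to 257 and limits of 10.8 to 14.1 in replicates 1 to 4, and their part in the low values was not tested. The basal epithelial markers miR-205 and miR-203 summed to between 21.4 and 166 in EMT-like areas.

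The 2 genomic clusters moved together across the samples. The mean log2 level of miR-200b, miR-200a and miR-429 was above that of miR-200c and miR-141 by 0.28 to 1.72 in carcinoma, 0.64 to 1.21 in metastasis, 0.59 to 1.13 in EMT-like replicates 1 to 4, 0.45 to 0.65 in NMG and 0.52 to 1.01 in NL. In EMT-like replicates 5 to 7, where most members were under the limit, the difference was -0.02, -1.26 and -1.92. After the group mean was taken off, the cluster means correlated with Pearson r = 0.931 and Spearman rho = 0.947 over the 20 tissue samples. Without the 2 samples farthest out r was 0.935, and without EMT-like replicates 5 to 7 it was 0.934 (n = 17). Pairs of members had r of 0.785 to 0.946 (10 pairs), whereas the mean of the family had a median r of 0.003 with 257 other detected miRNAs (range -0.558 to 0.845). The lowest and the highest pair both lay within a cluster, miR-200c with miR-141 and miR-200b with miR-200a. Pairs from different clusters had r of 0.786 to 0.927. These correlations are descriptions: the values of a sample share its lane, its scaling factor and its captured cells, and some samples share an animal.

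**Figure D4:**
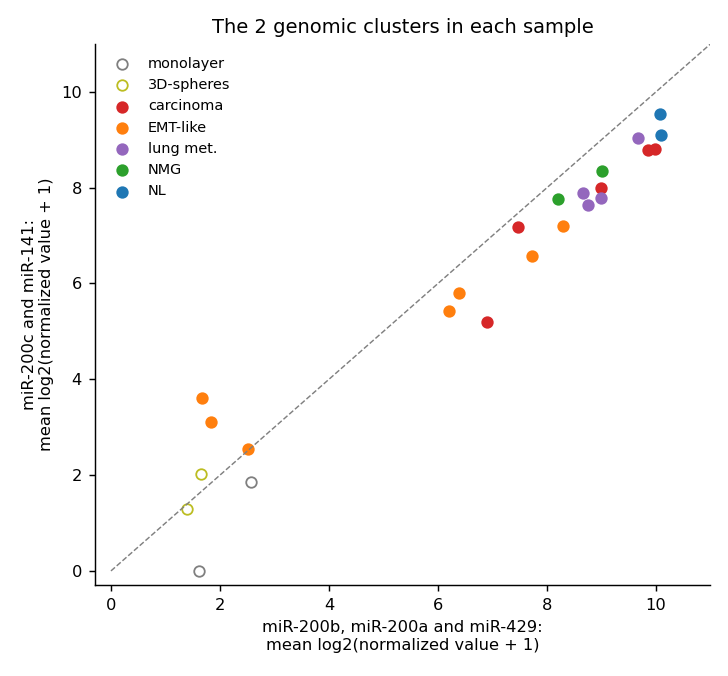
Mean log2(normalized value + 1) of the chromosome 4 cluster (x axis) and of the chromosome 6 cluster (y axis) in each sample, coloured by group (lung met., lung metastasis), open where no member was above the detection limit. The dashed line marks equal means; samples with all members detected run along and just below it, and EMT-like replicates 5 to 7 sit at the lower left beside the cultures.

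The proportions of members with the same seed differed little between normal and tumor tissue, and those of members with different seeds differed more, whether or not the members shared a cluster. This pattern was seen in the values first and is given as a description with no test. The pairs share members and are not independent. In tumors miR-200a and miR-141 were also the dimmest members, with median normalized values of 232 and 91.0 in carcinoma against 705 to 790 for the others. Seed and low signal thus cannot be told apart here. It rests on ratios of deposited values within a lane, which no scaling between lanes can change, in samples where both members were above the limit. Since probes differ in efficiency, such a ratio is not a ratio of molecules and only its change between samples is read. The value of miR-200a was 47.8% and 64.7% of that of miR-200b in NMG and 75.7% and 85.6% in NL. In 13 tumor samples it was between 16.2% and 39.2%, the median being 28.6% for carcinoma, 27.3% for metastasis and 24.8% for EMT-like areas, so tumor and normal samples did not overlap. These 2 miRNAs lie 695 bases apart in the same cluster. The value of miR-141, in the other cluster, was 31.5% to 39.2% of that of miR-200b in the 4 normal samples and 8.23% to 24.4% in 12 tumor samples, again with no overlap.

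Pairs with the same seed overlapped. The value of miR-429 was 54.7% to 89.5% of that of miR-200b in normal tissue and 61.5% to 110% in tumors, and that of miR-200c was 44.3% to 95.7% and 54.6% to 118%. Over all pairs, the medians of normal and tumor samples differed by 0.02 to 0.36 on the log2 scale in the 4 pairs with the same seed and by 1.34 to 2.01 in the 6 pairs with different seeds. Normal and tumor samples did not overlap in 2 of these 6 pairs, those of miR-200a and miR-141 with miR-200b, and overlapped in the 4 pairs with the same seed. Sorted by cluster instead, the differences were 0.02 to 2.01 within a cluster and 0.21 to 1.84 between clusters. With NMG as the only normal tissue the 6 pairs with different seeds differed by 0.97 to 1.71 and the 4 others by 0.05 to 0.58. With 2 SD of the negative controls subtracted as well, these were 1.43 to 2.28 and 0.01 to 0.56. The sums of miRNA values were higher in all normal lanes than in all tumor lanes, and their part in the ratios was not tested.

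**Figure D5:**
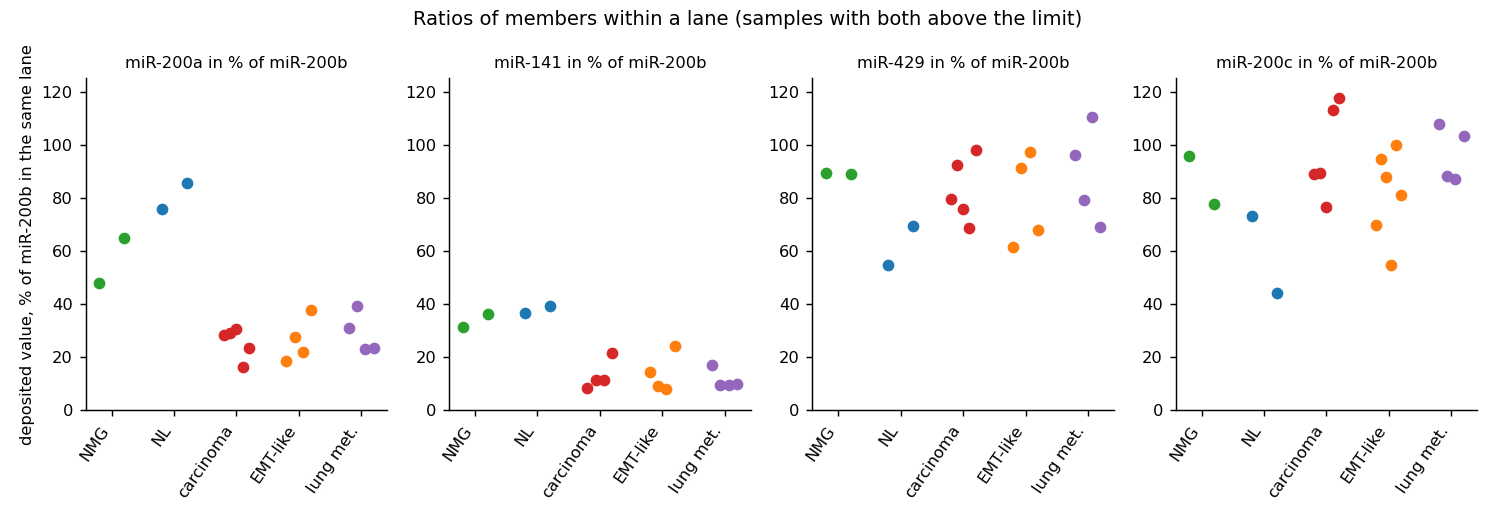
Deposited value of miR-200a, miR-141, miR-429 and miR-200c in percent of miR-200b of the same lane, a point per sample with both members above the detection limit, by tissue (lung met., lung metastasis). For miR-200a and miR-141, whose seed differs from that of miR-200b, the normal samples lie above all tumor samples; for miR-429 and miR-200c, with the seed of miR-200b, they overlap.

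The miRNAs whose levels were most like the mean of the 5 members over the 24 samples were sought among 266 other mouse miRNAs above the limit in at least 6 samples, whose median r was 0.222. They were miR-146b (r = 0.941), miR-301a (0.911), miR-203 (0.875), miR-340-5p (0.857), miR-154 (0.845), miR-191 (0.843), miR-664 (0.812) and miR-19a (0.808), and the next had 0.797. The normalized value of miR-146b was 276 and 316 in NL, 88.6 and 165 in NMG, 117 to 193 in metastasis and 25.4 to 110 in EMT-like areas. Its median was 140 in carcinoma and 33.1 and 19.0 in monolayer and spheres, so it followed the order of the members over a narrower range. The value of miR-203 was 224 to 629 in metastasis and 6.33 to 117 in EMT-like areas, and its medians were 37.5 in the monolayer, above the limit in both samples, and 13.7 in the spheres, under the limit in both. The values of miR-19a, a member of the miR-17-92 cluster, and of miR-340-5p were 0 in all 4 cultures. The contrast of tissue and culture enters each of these correlations.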

How the data were processed

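miRNAs were measured in 24 samples with the nCounter mouse miRNA assay, which counts barcoded probes without amplification of a library. The deposited values, barcode counts less background, had been made by the authors by taking off a background, the average of 6 negative controls per lane. They are whole numbers down to -20 with no scaling between lanes, and 35.2% of the miRNA values are below 0. The submitters' processing notes name Partek; the counting software is not given in the sources used here. Files of counts before subtraction were not used here, so no count model was fitted.

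Values were floored at 0 and scaled by TMM (trimming 30% by log ratio and 5% by level, reference lane carcinoma replicate 2), and log2(value + 1) was fitted with limma 3.58.1 (trend) in R 4.3.3 over all 7 groups, without a block. Benjamini-Hochberg adjustment covered 583 probes above 0 in at least 1 sample. Cultures are the average of monolayer and spheres. Single members were also compared with exact two-sided permutation tests in Python 3.11.15 (scipy 1.17.1, numpy 2.4.6, pandas 2.3.3). Where groups did not overlap for a member, the share of all probes that did the same is not given. Replicates are separate samples of a label, and no pair shared more than 9.01% of identical values. Where labels do not name separate animals or cultures, p-values measure only the spread between samples, which may be technical. Scripts were tested on simulated data. The members, gene lists (epithelial, 11 of 12 on the panel, and EMT-promoting or mesenchymal, 13 of 13) and cell type markers were chosen with earlier results of these data known. Named miRNAs were the members, the 8 miRNAs most correlated with their mean, and, per list and direction, the called miRNAs of largest fold change. Beside these, miR-183, miR-375, miR-205, miR-155, miR-34c, miR-34b-5p, miR-449a, miR-208a and miR-1 were named after their values were seen.

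Alternatives set with the design were other scalings (none, the 100 most abundant miRNAs, the miRNA total, 4 mRNA controls, positive controls), a filter (20 or more in 2 or more samples), a further 2 SD of background, a pseudocount of 10, a fit restricted to the groups compared, a random replicate block for the animal or culture number, and leaving out each sample. Chosen after seeing the data were TMM against NMG replicate 1, the animal as a fixed block, the series of animal labels as a term or without lettered animals, the bounds of the cultures under each scaling, and the alternatives for the ratios within a lane. The consensus correlation of samples with the same animal or culture number was -0.005.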

Additional observations from a re-analysis of the deposited data

Results flagged for a closer look

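In a group of 4 to 10 samples, the highest or lowest value of a member was set against the gap to its neighbour by Dixon's test, over 15 sets of a member and a tumor group. Lung metastasis replicate 1, whose label names 3 animals, was the highest by this test for miR-200b, with a normalized value of 1221 against 678 to 754 in the other metastases, and for miR-141, with 207 against 65.5 to 72.8. Chance gives such a value in about 1 in 20 groups, and the members are not independent of each other. Without this sample no member was called between metastasis and EMT-like areas, and 4 of 583 probes were called higher.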

How the results depend on the processing

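Over the alternatives, 763 of 935 values of single members kept their direction and their side of the threshold, 76 lost a call, 59 gained one and 37 changed sign, none of these a called value. Cultures against carcinoma kept 5 called members in every setting, and NL against NMG, metastasis against carcinoma and spheres against monolayer kept 0. With the animal or culture number as a random replicate block (10 comparisons) or as a fixed replicate block (the 5 comparisons within animals or cultures), no count of members moved by over 1.5 times (5 and 4 for metastasis against EMT-like areas). Counts moved with scaling, with the samples in the fit and without single samples; the cause was not tested. Near the detection limit (EMT-like replicates 5 to 7, cultures) folds depend on the pseudocount.

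The count for EMT-like areas against NMG (2) was 5 with no scaling, the mRNA controls, the positive controls and the higher background, 1 with the miRNA total and with only the groups compared, 0 with the 100 most abundant miRNAs, and 0 to 5 without 1 sample. With the higher background, the miRNA total and only the groups compared, 164, 92 and 119 of 583 probes were called lower. For carcinoma against NMG (0) it was 1 with no scaling and with the positive controls, where 289 and 298 of 583 probes were called lower. For metastasis against NL (0) it was 3 with no scaling, the mRNA controls and the positive controls, where 377, 386 and 379 of 583 probes were called lower. There it was 1 with the higher background and with a pseudocount of 10, 2 with only the groups compared, and 0 to 1 without 1 sample. With the higher background, the pseudocount of 10 and only the groups compared, 186, 256 and 172 of 583 probes were called lower. For metastasis against EMT-like areas (5) it was 0 with the mRNA controls and with only the groups compared, 1 with the higher background, and 0 to 5 without 1 sample. In these settings 1, 15 and 3 of 583 probes were called higher. For carcinoma against EMT-like areas (0) it was 2 with the filter and with TMM against NMG replicate 1, and 0 to 4 without 1 sample (4 without EMT-like replicate 2 or carcinoma replicate 4, 3 without EMT-like replicate 3, 1 without carcinoma replicate 5). Of all probes, 4 of 323 were called higher with the filter and 4 of 583 with TMM against NMG replicate 1. Without the samples named, in that order, 12, 9, 5 and 2 of 583 were. For cultures against EMT-like areas (4) it was 2 with the 100 most abundant miRNAs, the higher background and a pseudocount of 10, 1 with only the groups compared, and 1 to 5 without 1 sample. In these settings 67, 131, 116 and 114 of 583 probes were called lower.

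Signs changed as follows (log2 fold changes). For carcinoma against NMG, miR-200b was -1.12, miR-429 -1.24 and miR-200c -0.96 with no scaling, -0.42, -0.54 and -0.27 for the mRNA controls, and -1.19, -1.30 and -1.03 with the positive controls; miR-429 was -0.087 with the higher background and miR-200a 0.21 with the 100 most abundant miRNAs. For metastasis against NL, miR-200b was 1.05 and miR-429 1.55 with the 100 most abundant miRNAs, 0.74 and 1.25 when lanes were scaled to the miRNA total, and miR-429 0.0455 with TMM against NMG replicate 1. There miR-200c was -2.13 with no scaling, -2.49 with the mRNA controls, -2.29 with the positive controls and -0.44 with the higher background, and -0.41 to 0.46 without 1 sample. For metastasis against carcinoma, miR-200b was -0.0448 and miR-200c -0.0375 with no scaling, -0.0889 and -0.0815 for the mRNA controls, and -0.12 and -0.11 with the positive controls, and miR-429 was -0.0019 and -0.035 with the mRNA and the positive controls. Without 1 sample the ranges there were -0.0676 to 0.62 for miR-200b, -0.0334 to 0.85 for miR-200a, -0.0456 to 0.69 for miR-429, -0.0006 to 0.60 for miR-200c and -0.21 to 1.08 for miR-141. For cultures against EMT-like areas miR-200b was 0.29 with the 100 most abundant miRNAs.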
